A study of Homo sapiens with 12 samples.

Results

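The lysosome genes described here are 40 genes of a deposited RNA sequencing table of 38516 genes. They were chosen by name: LAPTM4A, the gene with the largest rise after HCP5 silencing in KYSE150 cells, and 39 other genes for lysosomal membrane proteins, enzymes, the proton pump and transcription factors that act on lysosome genes. The study measured 12 libraries of KYSE150 and KYSE510, which are human cell lines established from esophageal squamous cell carcinomas, with 3 control and 3 HCP5-silenced libraries in each line. HCP5 is a long non-coding RNA gene, and the series title links it to apoptosis, c-Myc and UTP3. All libraries came from cells grown in serum-containing medium, and the titles of control and silenced libraries alike begin with "sh", which is not spelled out. The labels do not identify the silencing or control reagents further, so no count of independent silencing sequences can be given. Nothing states that replicates came from separate cultures, so p-values measure the spread between these libraries, which may be technical.

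The lysosome is the acidic compartment in which cells break down protein, glycan, glycogen and lipid that arrive by endocytosis and autophagy. Its membrane holds heavily glycosylated proteins, channels and transporters, a proton pump called the V-ATPase keeps the lumen acidic, and soluble hydrolases do the digestion. The related factors TFEB and TFE3 bind E-box-like sites near many lysosome genes and are held in the cytoplasm by the kinase mTOR when nutrients are plentiful. In carcinoma cells, cathepsins can also be secreted and then cleave matrix outside the cell.

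Matches to the motif that TFEB and TFE3 are known to recognise are shown first, since several members share it near their start. RefSeq promoters (GRCh38.p14, 250 bases before to 50 after a gene's start) were found for 29 of the 40 members, with 1 promoter taken per gene. The 11 members with no entry were ARSA, ASAH1, ATP6V1A, ATP6V1H, CTSB, HEXA, LAMP2, LAPTM4B, NAGLU, PSAP and SGSH. Nested motifs of 3 lengths were searched, each of which reads the same on both strands. The 6-letter core CACGTG was in 7 of 29 member promoters (24.1%) and in 7.43% of 27305 promoters of the same length. With its flanks, TCACGTGA was in 5 member promoters (17.2%) against 1.04% of all. The same 8 letters with a G before and a C after them were in 2 (6.90%) against 0.381%. Each line below gives 24 bases, 5′ to 3′ on the strand of the gene, with the core in capitals, for the 5 genes with the 8 letters (LAMP1 holds them at 2 places, of which 1 is shown).
ATP6V0D1 (chr16:67481202-67481225, minus strand): ccttatggtCACGTGaggcgcttg
CTSA (chr20:45891301-45891324, plus strand): gccggagttCACGTGactcgtaca
GAA (chr17:80101496-80101519, plus strand): aggccgcgtCACGTGacccaccgc
GAA (chr17:80101541-80101564, plus strand): cccgccggtCACGTGacccgcctc
LAMP1 (chr13:113297202-113297225, plus strand): ccgcgggatCACGTGacgcccggg
MCOLN1 (chr19:7522574-7522597, plus strand): agaggcggtCACGTGaggggctct
MCOLN1 (chr19:7522601-7522624, plus strand): ctaccgggtCACGTGaccgaggca

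Both GAA sites and the second MCOLN1 site carry the full 10-letter motif, while the ATP6V0D1, CTSA, LAMP1 and first MCOLN1 sites carry the 8-letter one. CD63 and CTSD held the core with other flanks. None of the 3 motifs was in the LAPTM4A window, which says only that these letters are not within those 300 bases. A match is a description of sequence and was not tested here as a binding site of TFEB, TFE3 or any other factor.

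Depth was 20035025 to 28202422 reads per library, recovered from the deposited RPKM (reads per length of exon and per reads of the library assigned to genes). All 3 silenced KYSE150 libraries were deeper than all 3 controls of that line. HCP5 itself was at 0.779, 0.745 and 0.786 RPKM in control KYSE150 libraries and 0.315, 0.418 and 0.579 after silencing. The KYSE510 values were 0.914, 1.85 and 1.40 in control libraries and 0.505, 0.951 and 0.948 in silenced libraries, so the silenced library was lower in 6 of 6 same-numbered pairs. Squamous markers were at 1 RPKM or more for 8 of 8 genes in KYSE150 and 7 of 8 in KYSE510, where PKP1 was at 0.0874. General epithelial markers reached it for 4 of 5 and 5 of 5. No fibroblast marker (0 of 6) and no leukocyte or macrophage marker (0 of 7) reached 1 RPKM in either line, and of 4 endothelial markers only CDH5 did, at 1.39 in KYSE510. Macrophages are rich in cathepsins, and the summed leukocyte and macrophage markers stayed between 0.188 and 0.788 RPKM in every library.

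LAPTM4A encodes a small membrane protein of late endosomes and lysosomes that takes part in the making of the glycolipid globotriaosylceramide. In the table the gene lies on GRCh38 chromosome 2, 20032650 to 20052028, minus strand, with 1946 exon bases that it shares with no other gene of the table. Its level in control KYSE150 libraries was 5.05, 3.53 and 6.84 RPKM, from 197, 141 and 302 reads. After silencing it was 11, 15.2 and 16.4 RPKM, from 561, 832 and 860 reads. Every silenced library lay above every control, with means of 5.14 ± 1.66 and 14.2 ± 2.84 RPKM (SD, n = 3 each), a log2 difference of 1.40 (SE 0.23). This is the value by which the gene was chosen, so it is given with no test. It ranged from 1.18 to 1.61 over other pseudocounts, scalings and libraries left out.

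In KYSE510, which took no part in that choice, LAPTM4A was at 11.1, 16.1 and 17.3 RPKM in control libraries and 18.1, 21.1 and 22.0 RPKM in silenced libraries. The groups did not overlap and the silenced library was higher in 3 of 3 pairs. The means were 14.8 ± 3.28 and 20.4 ± 2.06 RPKM (SD, n = 3 each), a difference of 5.58 RPKM. An exact two-sided permutation test gave p = 0.1, the smallest that 3 against 3 libraries allow. On the log2(RPKM + 0.5) scale silenced libraries exceeded controls by 0.47 (SE 0.23). The limma adjusted p was 0.836 over 17823 genes and 0.310 with same-numbered libraries as a block, so it did not pass the threshold of 0.05. Ordered by mean, the groups were KYSE150 control, KYSE150 silenced, KYSE510 control and KYSE510 silenced. The middle 2 groups, 14.2 ± 2.84 and 14.8 ± 3.28 RPKM, differed by less than their spread.

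LAPTM4B, the close relative of LAPTM4A and a gene often abundant in carcinomas, was measured in the same libraries. It was at 16.3, 13.7 and 26.1 RPKM in control KYSE150 libraries and 18.2, 25.5 and 28.4 in silenced libraries. In KYSE510 the controls were at 18.3, 29.9 and 30.7 RPKM and the silenced libraries at 18.6, 20.7 and 21.7. Control and silenced libraries overlapped in both lines, and the KYSE510 log2 difference was -0.33 (SE 0.25, limma adjusted p = 0.937).

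**Figure D1:**
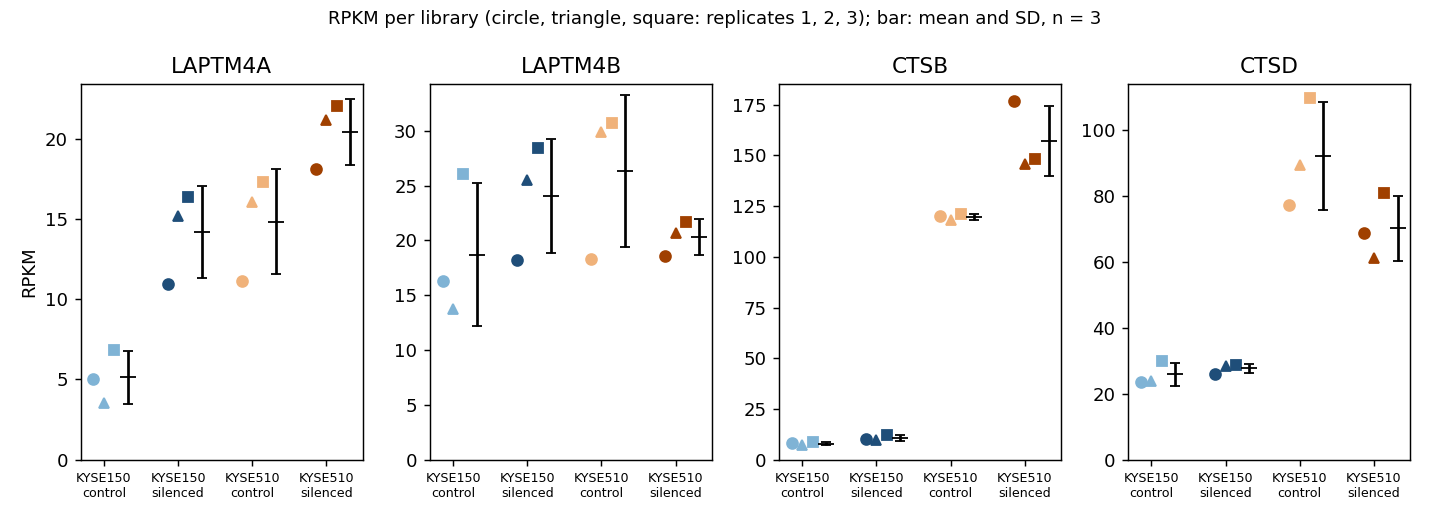
RPKM of LAPTM4A, LAPTM4B, CTSB and CTSD in each of the 12 libraries (points), with the mean and SD of each group of 3 (bars). LAPTM4A is higher in every silenced library than in the controls of the same line, LAPTM4B overlaps in both, and CTSB separates the lines, at 7.15 to 12.3 RPKM in KYSE150 and 118 to 177 in KYSE510.

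Among the other membrane proteins CD63 was the most abundant in both lines. CD63, a tetraspanin of late endosomes and exosomes, averaged 50.2 RPKM in KYSE150 and 82.4 in KYSE510 over 6 libraries each. LAMP1 (16.4 and 12.5) and LAMP2 (7.01 and 9.16) are the abundant glycoproteins that line the membrane. SCARB2, the receptor that carries glucocerebrosidase to lysosomes, averaged 5.31 and 11.9 RPKM, and NPC1, which moves cholesterol out of them, 1.89 and 4.36. MCOLN1, the calcium channel TRPML1, was at 2.28, 1.82 and 2.98 RPKM in control KYSE150 libraries, 3.23, 2.76 and 2.89 in silenced KYSE150, 2.33, 2.24 and 2.40 in control KYSE510 libraries and 2.10, 2.30 and 2.59 in silenced KYSE510. Control and silenced libraries overlapped in both lines, as did the lines themselves, and its log2 difference between lines was -0.15 (SE 0.09, limma adjusted p = 0.185).

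Of the 40 members, 39 reached 0.5 RPKM in 3 or more libraries and were tested. TFEB did not. CTSL and CTSZ passed only through the 6 KYSE510 libraries and SMPD1 only through the 6 KYSE150 libraries, so a difference between the lines in these 3 follows from how they entered. KYSE510 was compared with KYSE150 as the mean over control and silenced libraries, a contrast that in this balanced design is orthogonal to the KYSE150 silencing difference. In it, 28 of 39 members (71.8%) passed the threshold, against 72.8% of the 17823 genes tested. Without the 3 members named above, 25 of 36 passed. The share of members that differed was thus near that of all genes. By direction, 20 were higher in KYSE510 (30.1% of all genes were) and 8 in KYSE150 (42.7% of all genes were). Without CTSL, CTSZ and SMPD1, 18 of 36 were higher in KYSE510 and 7 in KYSE150. With pair means as the unit, 27 passed, against 66.0% of all genes. Without the same 3 members, 18 passed as higher in KYSE510 and 6 as higher in KYSE150. All 6 libraries of one line lay above all 6 of the other for 17 members higher in KYSE510 (21.4% of all genes) and 3 higher in KYSE150 (29.5%). Without those 3 filtered through 1 line, the counts were 15 and 2. The median member differed by 0.39 on the log2 scale and the median of all genes by -0.14, and 25 of 39 members were above 0 where 42.2% of all genes were. Without CTSL, CTSZ and SMPD1 the median was 0.33, and 23 of 36 were above 0. Since the lines were compared as bulk RNA, fewer cells expressing a gene and less of its RNA per cell cannot be told apart.

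Cathepsins are the main lysosomal proteases. Of the 8 peptidase members, CTSB, CTSC, CTSD and TPP1 were higher in KYSE510 past the threshold and none was lower, beside the shares of 30.1% and 42.7% of all genes. CTSL and CTSZ entered the test only through KYSE510, so their levels are described without being counted. CTSL, a cysteine protease, was at 56.5, 44.0 and 59.9 RPKM in control KYSE510 libraries and 59.8, 50.6 and 73.0 in silenced libraries, while all 6 KYSE150 libraries lay between 0.0412 and 0.0559. That is 2530 to 4298 reads per KYSE510 library and 2 or 3 reads per KYSE150 library. Scaled to depth, the ratio of the summed reads, 19964 to 16, was 1230 (exact 95% interval 757 to 2152, counting error only). CTSL RNA was therefore at the detection floor of 3 reads in KYSE150, with and without silencing.

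CTSZ, a carboxypeptidase of the same family, followed the same split. It was at 26.1, 28.6 and 31.7 RPKM in control KYSE510 libraries and 27.4, 29.2 and 29.7 after silencing. KYSE150 had 1 to 7 reads per library, 0.0245 to 0.131 RPKM, and the ratio of reads was 340 (230 to 526). For CTSL and CTSZ the fitted log2 differences, 6.71 and 5.65, depend on the pseudocount, and over all alternatives ran from 5.78 to 10.00 and from 4.78 to 8.45.

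CTSB, an abundant cysteine protease, was well measured in both lines. It was at 8.08, 7.15 and 8.68 RPKM in control KYSE150 libraries and 10.4, 9.65 and 12.3 in silenced libraries of that line. Levels in KYSE510 were 120, 118 and 121 RPKM in control libraries and 177, 146 and 148 in silenced libraries. The lines did not overlap, and CTSB was 3.82 higher in KYSE510 on a log2 scale (SE 0.07, limma adjusted p = 2.9e-12). It was the most abundant member in KYSE510 at 138 RPKM and ranked 11th of 40 in KYSE150 at 9.37.

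CTSD, the aspartic protease of the group, was at 23.6, 24.0 and 29.9 RPKM in control KYSE150 libraries and 26.1, 28.4 and 28.6 after silencing. In KYSE510 it was at 77.0, 89.2 and 110 RPKM in control libraries and 68.5, 61.2 and 80.6 in silenced libraries. All 6 KYSE510 libraries were above all 6 of KYSE150, a log2 difference of 1.56 (SE 0.10, limma adjusted p = 6.25e-08). Of its exon bases, 57.5% were shared with other genes of the table, 1304 bases on the same strand and 493 on the opposite one, so its level also depends on how such reads were counted.

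The remaining peptidases differed less. CTSC, which activates serine proteases, averaged 6.67 RPKM in KYSE150 and 11.5 in KYSE510, and the tripeptidyl peptidase TPP1 averaged 3.46 and 6.38. Both were higher in KYSE510 past the threshold, by 0.74 and 0.80 on the log2 scale. CTSA, which protects β-galactosidase and neuraminidase in a complex, averaged 8.03 and 9.73 RPKM and did not pass (limma adjusted p = 0.120), although it did among control libraries alone (0.0435) and after centring (0.00821). CTSH, an aminopeptidase, was at 3.67, 3.30 and 4.57 RPKM in control KYSE150 libraries, 3.44, 3.69 and 3.85 in silenced KYSE150, 3.79, 3.12 and 4.12 in control KYSE510 libraries and 4.17, 2.81 and 3.71 in silenced KYSE510. Its 4 groups overlapped, with a log2 difference between lines of -0.05 (SE 0.10, limma adjusted p = 0.677).

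Among other cathepsins, which are no members, the lines differed in both directions. CTSS averaged 5.57 RPKM in KYSE510 and had 1 to 3 reads per KYSE150 library, and CTSF averaged 1.58 RPKM in KYSE510 and had 0 or 1 read per KYSE150 library. Both reached 0.5 RPKM in KYSE510 only, so a difference between the lines follows from how they entered the test. CTSV, the closest relative of CTSL, went the other way. It was at 14.7, 13.9 and 11.9 RPKM in control KYSE150 libraries, 17.1, 15.3 and 15.3 in silenced KYSE150, 1.03, 0.791 and 1.14 in control KYSE510 libraries and 1.64, 1.46 and 1.94 in silenced KYSE510. The line rich in CTSL RNA was thus low in CTSV RNA, with a log2 difference of -3.08 (SE 0.08, limma adjusted p = 4.5e-11). Reads of CTSL and CTSV could be split between them in similar stretches, so their exact levels are uncertain.

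**Figure D2:**
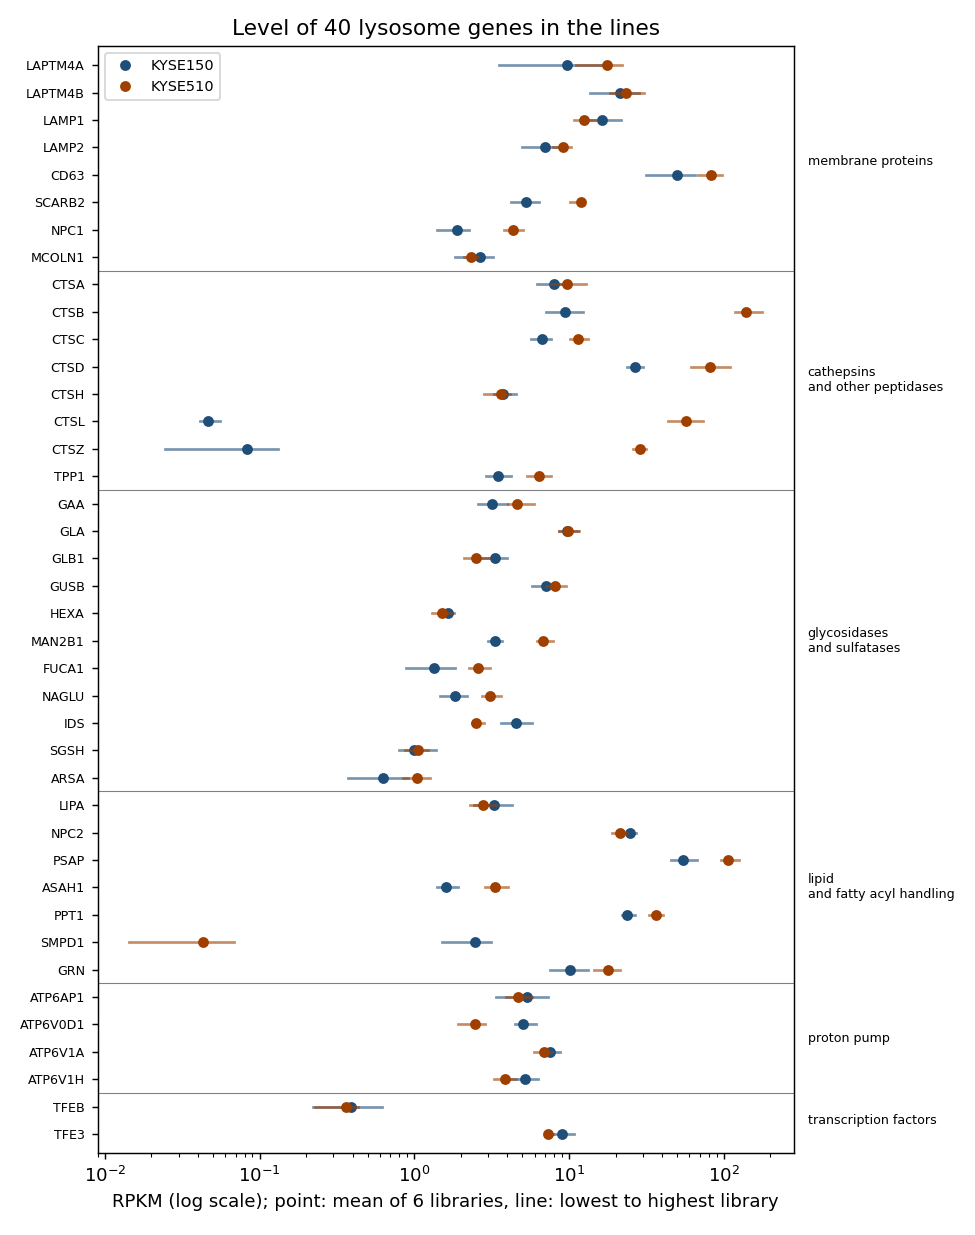
Mean RPKM of the 40 members in KYSE150 and KYSE510 (points, log axis), with the range of the 6 libraries of each line. CTSL and CTSZ sit near the floor in KYSE150, SMPD1 sits near it in KYSE510 at a mean of 0.0433 RPKM, and CTSB comes next in distance between the lines, at 9.37 and 138 RPKM.

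The glycosidases and sulfatases remove sugars and sulfate groups from glycans, glycolipids and glycogen. Of 11, 5 were higher in KYSE510 and 2 in KYSE150, where 30.1% and 42.7% of all genes were. The α-mannosidase MAN2B1 averaged 3.33 RPKM in KYSE150 and 6.80 in KYSE510, a log2 difference of 0.93 (SE 0.08). FUCA1, a fucosidase, averaged 1.35 and 2.59, NAGLU, a heparan sulfate enzyme, 1.83 and 3.10, GAA, which digests glycogen, 3.18 and 4.61, and ARSA, which acts on sulfatide, 0.630 and 1.04. GLB1, the β-galactosidase used as a senescence stain, was higher in KYSE150 at 3.33 against 2.51 RPKM, although its libraries overlapped between the lines. The calls for ARSA and GAA were lost among silenced libraries alone (limma adjusted p = 0.0993 and 0.0957), and that for GLB1 among control libraries alone (0.291).

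IDS, iduronate sulfatase, was at 3.80, 3.62 and 5.44 RPKM in control KYSE150 libraries and 4.32, 4.51 and 5.74 in silenced libraries. The KYSE510 values were 2.36, 2.41 and 2.82 RPKM in control libraries and 2.44, 2.38 and 2.63 after silencing. No library of one line overlapped those of the other, and the log2 difference was -0.74 (SE 0.10, limma adjusted p = 4.7e-05). The other 4 enzymes of the group did not pass, although GUSB did after centring (limma adjusted p = 0.00224). GLA, an α-galactosidase, averaged 9.68 RPKM in KYSE150 and 9.92 in KYSE510, GUSB, a β-glucuronidase, 7.07 and 8.07, HEXA, a hexosaminidase subunit, 1.66 and 1.51, and SGSH, a heparan sulfamidase, 1.0 and 1.06.

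The members listed for lipid and fatty acyl handling, with progranulin (GRN) placed among them, included the most abundant member in KYSE150. PSAP, the precursor of the saposins that present sphingolipids to their enzymes, averaged 54.2 RPKM in KYSE150 and 107 in KYSE510. It was higher in KYSE510 together with ASAH1, acid ceramidase (1.61 and 3.32), PPT1, which removes palmitate from proteins (23.7 and 36.4), and GRN, progranulin (10.2 and 18.0). These 4 were separated by library, as 21.4% of all genes were in that direction, with log2 differences of 0.98, 0.85, 0.61 and 0.81. By the limma threshold, 4 of 7 were higher in KYSE510 and 2 in KYSE150, where 30.1% and 42.7% of all genes were. The 2 were NPC2 and SMPD1, and SMPD1 entered the test only through KYSE150. NPC2, which hands cholesterol to NPC1, averaged 24.9 RPKM in KYSE150 and 21.4 in KYSE510, a log2 difference of -0.21 (SE 0.06, limma adjusted p = 0.0061). The NPC2 call was lost among control libraries alone (-0.080, limma adjusted p = 0.411) and after centring (-0.10, 0.0864). LIPA, the acid lipase for cholesteryl esters and triglycerides, averaged 3.26 and 2.79 RPKM and did not pass (adjusted p = 0.172 in limma), although it did among silenced libraries alone (0.042).

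SMPD1, acid sphingomyelinase, was the one enzyme close to absent from KYSE510. It was at 2.23, 1.51 and 2.39 RPKM in control KYSE150 libraries and 2.86, 2.75 and 3.13 after silencing, from 85 to 232 reads per library. KYSE510 had 1 to 4 reads per library, 0.0144 to 0.0689 RPKM. Scaled to depth, the summed reads, 1009 in KYSE150 and 17 in KYSE510, gave a ratio of 60.2 (exact 95% interval 37.4 to 104, counting error only). The fitted log2 difference of -2.43 depends on the pseudocount and ran from -5.71 to -1.72 over the alternatives.

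For the proton pump, none of the 4 members was higher in KYSE510 and 2 were higher in KYSE150, where 42.7% of all genes were. ATP6V0D1, a subunit of the membrane sector, was at 4.49, 4.47 and 4.94 RPKM in control KYSE150 libraries and 5.0, 5.08 and 6.11 in silenced libraries. It was at 2.63, 2.35 and 2.75 RPKM in control KYSE510 libraries and 2.29, 1.91 and 2.87 after silencing. The lines did not overlap, with a log2 difference of -0.90 (SE 0.09, limma adjusted p = 2.5e-06). ATP6V1H, a regulatory subunit, averaged 5.21 and 3.87 RPKM and was also higher in KYSE150, a call lost among control libraries alone (limma adjusted p = 0.116). The catalytic subunit ATP6V1A (7.59 and 6.86) and the accessory protein ATP6AP1 (5.37 and 4.68) did not pass, although both passed among silenced libraries alone.

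TFEB, the factor best known for switching on lysosome genes, was low in both lines, at 25 to 94 reads per library. It was at 0.221, 0.276 and 0.413 RPKM in control KYSE150 libraries and 0.323, 0.490 and 0.617 after silencing, which overlap. Levels in KYSE510 were 0.228, 0.322 and 0.328 RPKM in control libraries and 0.435, 0.419 and 0.434 in silenced libraries, which do not overlap. Fitted without the filter, its difference in silenced KYSE510 cells was 0.23 (SE 0.13, limma adjusted p = 0.902).

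TFE3 was far more abundant. It was at 6.97, 7.32 and 9.0 RPKM in control KYSE150 libraries and 9.59, 10.8 and 10.5 in silenced libraries. In KYSE510 it was at 7.03, 7.89 and 7.07 RPKM in control libraries and 7.43, 6.99 and 7.40 in silenced libraries. TFE3 separated control from silenced libraries in KYSE150 and overlapped in KYSE510. Between the lines it was higher in KYSE150 by 0.27 on the log2 scale (-0.27 for KYSE510 against KYSE150, SE 0.07, limma adjusted p = 0.0037). Among control libraries alone this difference was -0.072 and did not pass (limma adjusted p = 0.54), and among silenced libraries alone it was -0.47.

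Across the membrane proteins, 5 of 8 were higher in KYSE510 and 1, LAMP1, in KYSE150, where 30.1% and 42.7% of all genes were. SCARB2 was at 4.56, 4.19 and 4.65 RPKM in control KYSE150 libraries and 5.83, 6.24 and 6.40 after silencing. The KYSE510 values were 10.1, 12.3 and 12.3 RPKM in control libraries and 12.5, 12.1 and 12.3 in silenced libraries. All KYSE510 libraries were above all of KYSE150, a log2 difference of 1.11 (SE 0.06, limma adjusted p = 1.7e-08). NPC1 and CD63 were also separated by library (21.4% of all genes were in that direction), with log2 differences of 1.03 and 0.74. LAMP2 was higher with overlap at 0.39, though at 0.10 among silenced libraries alone (limma adjusted p = 0.458). LAMP1 was higher in KYSE150 by a log2 difference of -0.35 (SE 0.12, limma adjusted p = 0.0193), but with the mean of each same-numbered pair as the unit its adjusted p was 0.0524, and among control libraries alone the difference was -0.037 (limma adjusted p = 0.861). LAPTM4B did not pass, at 21.4 and 23.3 RPKM.

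LAPTM4A averaged 9.66 RPKM in KYSE150 and 17.6 in KYSE510, a log2 difference of 0.99 (SE 0.16, limma adjusted p = 1.6e-04). The ranges of 3.53 to 16.4 and 11.1 to 22.0 RPKM overlapped. Among control libraries alone the difference was 1.46, and among silenced libraries alone it was 0.53 with a limma adjusted p of 0.0623. Both of these values rest on KYSE150 libraries that took part in choosing the gene, so nothing is read from them.

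Summed over the 40 members, the lysosome genes held 363 RPKM in KYSE150 and 758 in KYSE510. PSAP, CD63, CTSD, NPC2 and PPT1 made up 49.5% of the sum in KYSE150, and CTSB, PSAP, CD63, CTSD and CTSL 61.4% in KYSE510. The median tested member was at 5.21 RPKM in KYSE150 and 6.86 in KYSE510, beside 3.49 and 3.21 for all genes tested. The sum was 324 ± 50.2 RPKM in control KYSE150 libraries and 403 ± 40.8 in silenced libraries, and 757 ± 86.8 and 760 ± 50.8 in KYSE510 (SD, n = 3 each).

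HCP5 silencing in KYSE510 moved no member past the threshold. In limma, 0 of 39 members passed, against 7 of 17823 genes (0.0393%), and 0 of 39 with same-numbered libraries as a block, where 20 genes (0.112%) passed. At an unadjusted p under 0.05, 2 members (CTSB and CTSD) were found against 6.35% of all genes, and 5 with the block against 13.2%. The median member differed by -0.07 on the log2 scale, and the median of all genes by -0.02. Log2 differences were below 0 for 29 members and above 0 for 10, and 43.0% of all genes were above 0. After centring each library on its median, 15 of 39 members and 9043 of 17823 genes were above 0. A difference that misses the threshold does not show that levels were the same.

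Among these KYSE510 values, LAPTM4A was the highest, followed by CTSB, and CTSD was the lowest. CTSB averaged 120 ± 1.5 RPKM in control and 157 ± 17.2 in silenced libraries (SD, n = 3 each), higher in 3 of 3 pairs with no overlap, and LAPTM4A was the only other tested member so separated upward (5.22% of all genes were). The CTSB log2 difference was 0.38 (SE 0.11, limma adjusted p = 0.422, 0.0994 with the block). CTSD averaged 91.9 ± 16.4 and 70.1 ± 9.82 RPKM, lower in 3 of 3 pairs but overlapping, with a log2 difference of -0.38 (SE 0.14, limma adjusted p = 0.638, 0.169 with the block). CTSL averaged 53.4 ± 8.37 and 61.1 ± 11.2 RPKM, higher in 3 of 3 pairs, with a log2 difference of 0.19 (SE 0.14). None of these differences passed the test.

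GAA was the member separated downward in KYSE510, where 6.87% of all genes were. Its controls were at 4.48, 4.74 and 5.98 RPKM and its silenced libraries at 4.02, 4.04 and 4.40. In KYSE150 it was at 2.57, 2.89 and 3.71 RPKM in control libraries and 2.85, 3.08 and 3.99 after silencing, which overlap. The KYSE510 log2 difference was -0.25 (SE 0.15, limma adjusted p = 0.884). Over the 11 glycosidases and sulfatases, 10 had lower values in silenced KYSE510 libraries, with a median of -0.11, beside 43.0% of all genes with higher values and a median of -0.02. In 5 of them (GAA, GLA, GLB1, NAGLU and SGSH), and in 7 of all 39 members, the silenced library was the lower one in all 3 pairs, as it was for 21.8% of all genes. It was the higher one in all 3 pairs for 4 members (LAPTM4A, CTSB, CTSL and SMPD1), beside 16.0% of all genes. SMPD1 had only 1 to 4 reads per KYSE510 library, so little can be read from its order.

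**Figure D3:**
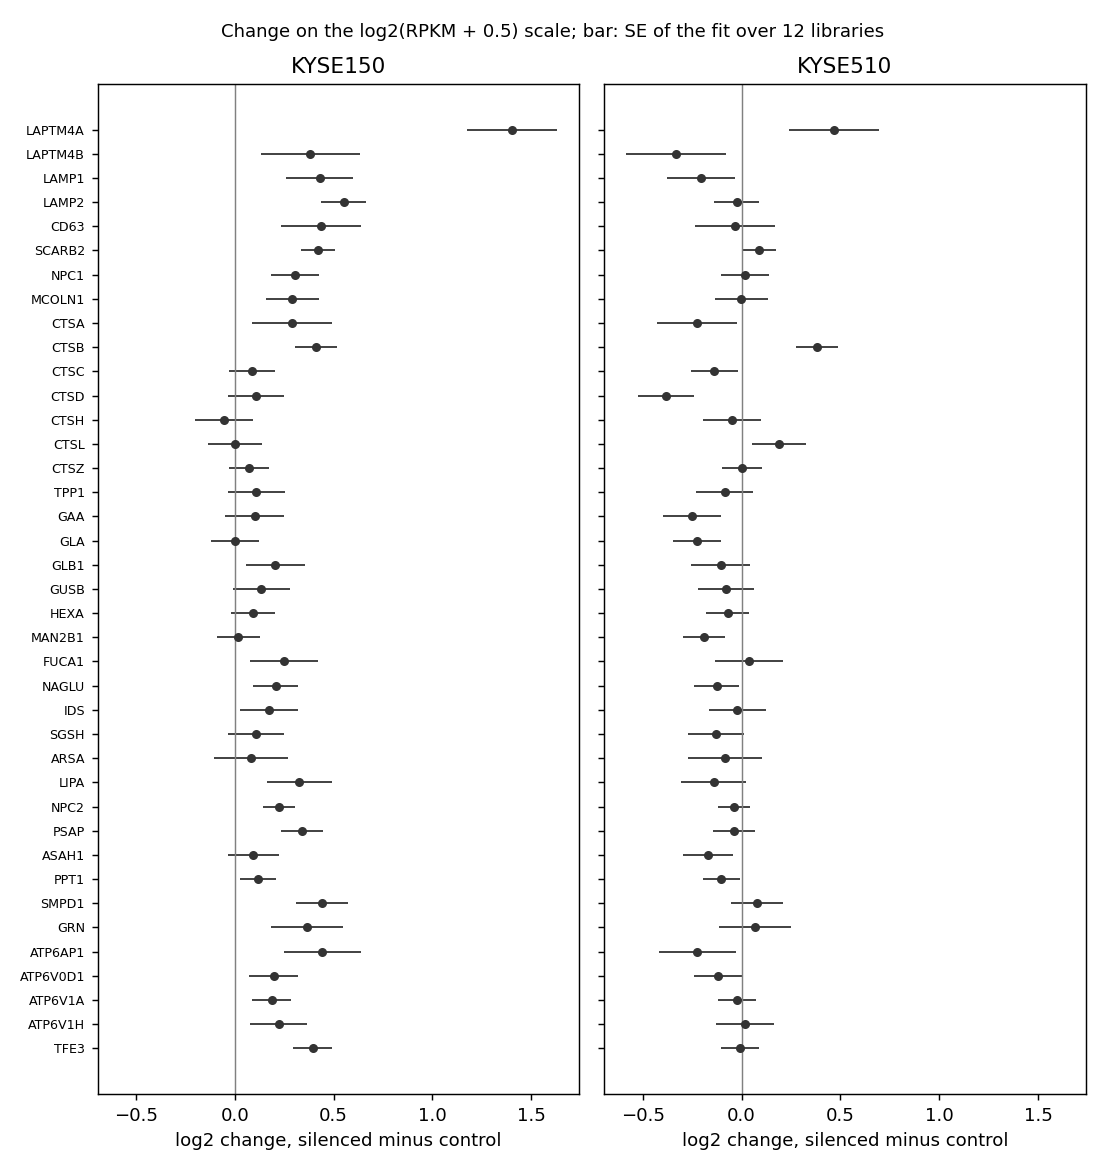
Log2 difference between silenced and control libraries, with its SE, for the 39 tested members in KYSE150 (description only) and KYSE510. LAPTM4A stands highest in both lines, at 1.40 and 0.47, nearly all KYSE150 values lie above 0, and no KYSE510 value passed the test.

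In KYSE150 the same contrast chose LAPTM4A, so the members' values are a description and nothing is read from them. Log2 differences were above 0 for 38 of 39 members, where 66.1% of all genes were. The 38 include GLA, whose mean was 9.67 RPKM after silencing and 9.69 in controls. They also include CTSL and CTSZ, which had 2 or 3 and 1 to 7 reads per KYSE150 library. The median member was at 0.21 on the log2 scale and the median of all genes at 0.08. All silenced KYSE150 libraries were deeper than the controls, and centring each library on its median shifted every KYSE150 difference by -0.13. After centring, 25 of 39 members were above 0 and the members' median was 0.08. For all genes, 7317 of 17823 were above 0 after centring and the median was -0.05. The part of depth in these values was not tested.

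By role, the KYSE150 medians were 0.43 for membrane proteins, 0.33 for lipid handling, 0.21 for the proton pump, 0.11 for glycosidases and sulfatases and 0.10 for cathepsins. After centring the last 2 were at -0.02 and -0.03, beside a median of -0.05 for all genes. Control and silenced libraries did not overlap for 11 members, all higher after silencing (13.7% of all genes were): LAPTM4A, LAMP2, SCARB2, NPC1, CTSB, NPC2, PSAP, SMPD1, ATP6V0D1, ATP6V1A and TFE3.

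LAMP2, which also serves as a receptor for chaperone-mediated autophagy, came second to LAPTM4A. It was at 5.55, 4.97 and 6.27 RPKM in control KYSE150 libraries and 7.66, 8.27 and 9.36 after silencing, a log2 difference of 0.55 (SE 0.11). Levels in KYSE510 were 7.91, 9.55 and 10.3 RPKM in control libraries and 8.81, 8.78 and 9.59 in silenced libraries. Control and silenced KYSE510 libraries overlapped, and silenced KYSE150, at 7.66 to 9.36 RPKM, overlapped the KYSE510 range of 7.91 to 10.3.

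ATP6AP1 came after LAMP2, at 4.25, 3.39 and 5.86 RPKM in control KYSE150 libraries and 5.10, 6.23 and 7.37 after silencing, with overlap and a log2 difference of 0.44 (SE 0.20). In KYSE510 it was at 3.89, 5.80 and 5.63 RPKM in control libraries and 3.94, 4.05 and 4.76 after silencing. At the other end were CTSH, the one member below 0 at -0.05, CTSL, which was at the read floor, and GLA, near 0. GLA was at 8.85, 8.77 and 11.4 RPKM in control KYSE150 libraries and 8.68, 10.7 and 9.63 after silencing. The KYSE510 values were 9.82, 10.8 and 11.6 RPKM in control libraries and 8.56, 8.58 and 10.2 in silenced libraries, with the silenced library lower in 3 of 3 pairs.

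The members also moved together from library to library within groups. Replicate 3 was the highest of its group for 37 of 39 members in control KYSE150 libraries, 28 in silenced KYSE150, 30 in control KYSE510 libraries and 32 in silenced KYSE510. For all genes those shares were 55.1%, 49.8%, 43.1% and 39.2%. Replicate 3 was also the deepest library of 3 of these groups, and the part of depth was not tested. The lowest of its group was KYSE150 control 2 for 29 members, KYSE150 silenced 1 for 31, KYSE510 control 1 for 32 and KYSE510 silenced 2 for 23. For all genes those libraries were lowest in 44.4%, 56.8%, 58.3% and 34.3%. The median coefficient of variation of the members was 18.0% in control KYSE150 libraries, 11.5% in silenced KYSE150, 14.8% in control KYSE510 libraries and 9.05% in silenced KYSE510, beside 14.6%, 12%, 13.0% and 10.8% for all genes.

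**Figure D4:**
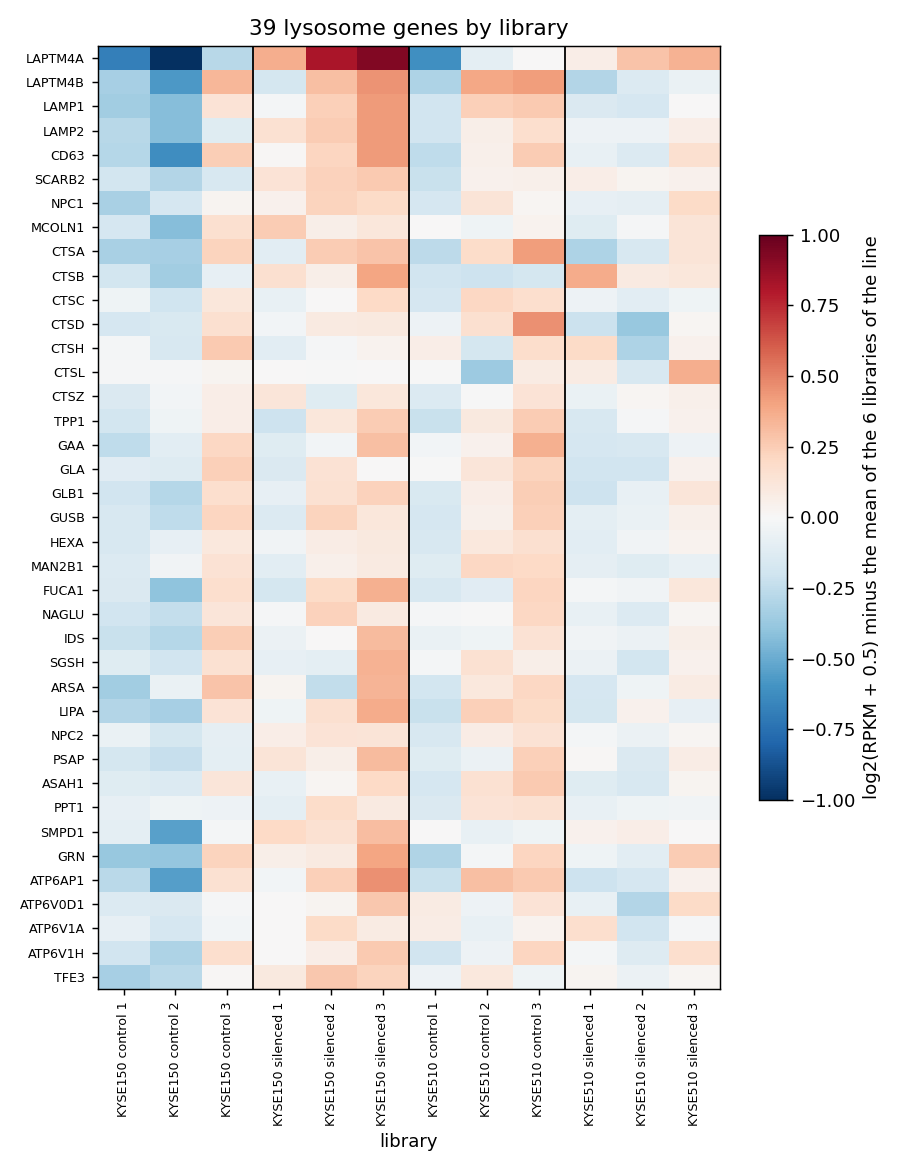
Log2(RPKM + 0.5) of the 39 tested members in each library, minus the mean of the 6 libraries of the same line. Replicate 3 is the highest of its group for 28 to 37 members, and LAPTM4A shows the widest range in KYSE150.

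Other genes of the pathway, taken from lists of non-members, showed 0 genes past the threshold after silencing in KYSE510 in every list in limma. Of all genes, 0.0393% passed. At an unadjusted limma p under 0.05 there were 0 to 2 genes per list, where 6.35% of all genes were. With the block there were 0 to 7 per list, where 13.2% of all genes were. Between the lines, other lysosomal hydrolases and their helpers were split, with 11 of 27 tested higher in KYSE510 and 10 in KYSE150. For all genes those shares were 30.1% and 42.7%. In either direction 77.8% of this list passed, beside 72.8% of all genes. CTSS and CTSF, which entered only through KYSE510, are in these counts. GM2A, the activator protein for ganglioside breakdown, was higher in KYSE510 at 8.24 against 2.84 RPKM. DNASE2, the lysosomal DNase, was higher in KYSE150 at 4.96 against 2.03 RPKM. Other membrane proteins and transporters were split too, 7 and 9 of 22, or 72.7% in either direction. LAMP3 (3.43 against 0.416 RPKM), TMEM106B (2.73 against 0.539) and the nucleoside transporter SLC29A3 (4.60 against 1.53) were higher in KYSE510. The ion channel TMEM175 (1.20 against 0.285) and PLEKHM1 (2.09 against 1.08) were higher in KYSE150.

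Of 14 other V-ATPase subunits tested, 2 were higher in KYSE510 and 6 in KYSE150, where 30.1% and 42.7% of all genes were. ATP6V1F, the most abundant of those named, averaged 206 RPKM in KYSE150 and 128 in KYSE510. Genes that sort enzymes to the lysosome gave 4 and 7 of 15, or 73.3% in either direction, beside 72.8% of all genes. The mannose 6-phosphate receptors differed in opposite directions: IGF2R, the large receptor, was at 15.9 RPKM in KYSE510 and 6.14 in KYSE150, and M6PR, the small one, at 32.1 and 61.5. AP1M1 and AP1S1, subunits of the clathrin adaptor at the Golgi, were also higher in KYSE150.

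In nutrient sensing at the lysosome and its control of TFEB, 4 of 17 genes were higher in KYSE510 and 11 in KYSE150. For all genes those shares were 30.1% and 42.7%. LAMTOR1, which anchors the complex that recruits mTOR to the membrane, averaged 21.8 RPKM in KYSE150 and 10.1 in KYSE510, while MTOR itself averaged 7.13 and 10.6. MITF, a relative of TFEB, averaged 1.47 and 2.16. Autophagy genes gave 4 and 10 of 20, or 70% in either direction, beside 72.8% of all genes. SQSTM1, the cargo receptor p62, averaged 78.8 RPKM in KYSE510 and 37.9 in KYSE150, and ATG9A 9.55 and 3.36. WIPI1, UVRAG and GABARAPL2 were higher in KYSE150. All genes named from these lists passed the limma threshold between the lines, which for CTSF and CTSS follows from how they entered. LAMP3 in KYSE150 and TMEM175 in KYSE510 averaged under 0.5 RPKM, so this may hold for them in part.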

How the data were processed

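RNA was sequenced from 12 libraries of KYSE150 and KYSE510 cells, 3 per group, grouped by the labels. The authors deposited 1 table of RPKM for 38516 genes. The submitters' processing notes name HISAT2, DESeq and GRCh38 with no role or version, and per the file headers the position columns have the form that featureCounts writes. The annotation release, the use of strand and any filters are not given in the sources used here. RPKM times exon length gave whole reads for all values, within 0.01 read, so reads and exact 95% Poisson intervals were recovered. The intervals take in counting error alone, because copies made by PCR do not count separate molecules. RPKM depends on all genes of a library.

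Log2(RPKM + 0.5) was fitted with limma 3.58.1 in R 4.3.3 (4 group means, all 12 libraries, 8 residual degrees of freedom, eBayes with a trend) for the 17823 genes that reached 0.5 RPKM in 3 or more libraries. P-values were two-sided and adjusted over all genes tested (Benjamini-Hochberg), with a threshold of 0.05. For low genes this scale makes a change look smaller than it was. The fit was tested on simulated libraries drawn independently, with no link between same-numbered ones. That test therefore does not show how the p-values behave in these libraries. Deviations from group means correlated at 0.147 to 0.415 in the 6 same-numbered pairs of a line, and at -0.385 to 0.184 otherwise. The numbers were taken to pair libraries, and the block left 4 residual degrees of freedom. The chi-square per gene between replicates was 11.3 to 40.4, above the value of 1 that sampling noise gives, and all were kept. Alternatives were other pseudocounts, no filter, centring each library, voom on recovered reads, the block, fewer groups and leaving out each library.

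Members and gene lists were chosen with earlier results of these data known. Named genes followed a rule: all members, per-library values for LAPTM4A, LAPTM4B, TFEB, TFE3, MCOLN1 and the largest differences of each contrast, and up to 3 non-members per list and direction past the threshold. Some genes that this rule would name are not reported here. Promoter sequences are from RefSeq (GRCh38.p14). Of the members, 24 share no exon base with another gene of the table and 16 share some, most of all CTSD.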

Additional observations from a re-analysis of the deposited data

Results flagged for a closer look

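For 4 enzymes, the silenced library was above its same-numbered control in all 3 pairs of KYSE150 and below it in all 3 pairs of KYSE510. The same pattern was found in 7.79% of the 17823 genes tested, beside 10.3% of the 39 members. CTSA differed by 0.29 on the log2 scale in KYSE150 and by -0.23 in KYSE510. GAA, the glycogen-digesting glucosidase, differed by 0.10 and -0.25. GLB1 differed by 0.20 and -0.11, and SGSH by 0.11 and -0.13. The difference between the lines was not tested for any of them. None passed the threshold in KYSE510. After centring each library, GAA and SGSH were at -0.03 and -0.02 in KYSE150, beside a median of -0.05 for all genes. Groups of 3 libraries were too small for a search for single libraries far from the rest.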

How the results depend on the processing

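No member passed the threshold after silencing in KYSE510 under any alternative run. The count over all genes in that line, 7, was 0 in limma with the 6 KYSE510 libraries alone (1338 at an unadjusted p under 0.05), 44 without the filter, 3 when the pseudocount was 0.1 and 20 with the replicate block, and 2 to 7 with 1 library left out. Between the lines, members higher in KYSE150 numbered 3 rather than 8 among control libraries only, where ATP6V1H, GLB1, LAMP1, NPC2 and TFE3 were lost. Over all genes, those higher in KYSE150 numbered 6005 rather than 7604 among control libraries only. Of 17823 genes, 12977 passed in either direction with all 12 libraries, 11046 among controls, 11416 among silenced libraries and 12854 after centring. Among silenced libraries only, ARSA, GAA, LAMP2 and LAPTM4A were lost. The replicate block as pair means lost LAMP1 alone, and centring lost NPC2. Calls gained were CTSA among controls, ATP6AP1, ATP6V1A and LIPA among silenced libraries, and CTSA and GUSB after centring. Leaving out any 1 library lost none of the 28 members, and gained MCOLN1 (without control KYSE150 replicate 2), CTSA and GUSB (without control KYSE150 replicate 3), CTSA (without control KYSE510 replicate 1) or ATP6V1A (without silenced KYSE510 replicate 1). Centring shifted every difference by -0.13 in KYSE150 silencing, 0.03 in KYSE510 silencing and 0.11 between the lines. With it, uncalled KYSE510 silencing differences changed sign for LAMP2 (0.0019), MCOLN1 (0.0251), IDS (0.0040), ATP6V1A (0.0027) and TFE3 (0.0174), and uncalled line differences for CTSH (0.057) and HEXA (0.00079). Line differences also changed sign for LAPTM4B (-0.22), GLA (-0.081) and SGSH (-0.052) among silenced libraries, and for LIPA (0.051) and ATP6AP1 (0.18) among controls. With 1 library left out, uncalled values near 0 crossed it. In KYSE510 silencing these were LAMP2 (-0.13 to 0.055), CD63 (-0.17 to 0.084), SCARB2 (-0.0013 to 0.14), NPC1 (-0.077 to 0.083), MCOLN1 (-0.067 to 0.059), CTSH (-0.16 to 0.094), CTSZ (-0.065 to 0.073), TPP1 (-0.22 to 0.018), GUSB (-0.18 to 0.018), FUCA1 (-0.033 to 0.15), IDS (-0.062 to 0.046), NPC2 (-0.13 to 0.027), PSAP (-0.11 to 0.072), GRN (-0.064 to 0.19), ATP6V1A (-0.11 to 0.068), ATP6V1H (-0.075 to 0.13) and TFE3 (-0.036 to 0.042). Between the lines these were CTSH (-0.10 to 0.020) and GLA (-0.0058 to 0.094). The cause of these changes was not tested. Depth limits CTSL and CTSZ in KYSE150 and SMPD1 in KYSE510, which had 1 to 7 reads per library there.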
